A study of Mus musculus with 4 samples.

Results

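The RNAs of 4 chromatin regulators, Hdac7, Chd7, Arid1a and Ezh2, carried 27 of the 900 reproducible peaks of DDX5 binding mapped by enhanced crosslinking and immunoprecipitation (eCLIP) in mouse Th17 cells. Their peaks are those whose gene annotation in the authors' deposited list names the gene. Hdac7 had 10 peaks, Chd7 had 8, Arid1a had 7 and Ezh2 had 2, and 459 genes were named in the whole list. Of 21900 protein-coding genes of the RefSeq table, 396 (1.81%) had a peak, and since the 4 genes were taken from these, nothing is read from that share. These genes were chosen by the presence, number and log2 fold of their peaks in this list, so these values are given as a description, with no test. The cells were wild type Th17 cells, grown from naive CD4 T cells of female C57BL/6 mice for 72 h in the presence of anti-CD3, anti-CD28, IL-6 and TGF-β. The mice were 8 weeks old by the sample labels, and the series design speaks of 2 mice of 8 to 10 weeks. In eCLIP, RNA is fixed to protein with ultraviolet light and trimmed with RNase, and the fragments pulled down with an antibody (here to DDX5) are sequenced. The study compared 2 DDX5 immunoprecipitates (IP) with 2 inputs, which share replicate numbers 1 and 2, and the labels do not say which mouse gave which replicate.

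DDX5 is a DEAD-box RNA helicase, an enzyme that remodels RNA structure and RNA-protein complexes and takes part in transcription and splicing. The genes described here act on chromatin by different routes. Hdac7 encodes a class IIa histone deacetylase, a family that works mainly by docking transcription factors to corepressor complexes and that is regulated by export from the nucleus after T cell receptor signals. Chd7 encodes an ATP-driven nucleosome remodeller of the CHD family, and Arid1a the DNA-binding subunit that defines the canonical BAF (SWI/SNF) remodelling complex. Ezh2 encodes the methyltransferase of Polycomb repressive complex 2, which places the repressive mark on lysine 27 of histone H3 and restrains helper T cell cytokine genes. A peak here is a stretch of RNA from the gene with more IP than input signal. It says nothing of the activity of the encoded protein.

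No peak of Arid1a, Ezh2 or Hdac7 overlapped any of the 7 RefSeq promoter windows held for these genes (GRCm38.p6, the assembly that mm10 follows, from 250 bases before to 50 after a start). The closest peaks began a short way downstream of some of these starts. One stretch of 100 bases upstream of such a start is shown for each gene, outside the exons of the transcripts listed at its peaks. Each stretch lies in an intron of a listed transcript that starts further upstream, so it is within the span of that transcript. Distances to starts in later paragraphs are taken from the listed transcripts, whose starts need not be these RefSeq starts. All 3 stretches are on the minus strand and are written 5′ to 3′ along the gene. Capitals mark CG dinucleotides, the motif searched, which reads the same on both strands. The stretch of Arid1a is chr4:133753986-133754085, ending at the base before the start at 133753985. The stretch of Ezh2 is chr6:47595059-47595158, ending 29 bases before the start at 47595030. The stretch of Hdac7 is chr15:97831768-97831867, ending at the base before the start at 97831767.
Arid1a: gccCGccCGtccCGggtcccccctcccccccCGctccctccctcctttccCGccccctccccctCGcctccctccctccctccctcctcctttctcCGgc
Ezh2: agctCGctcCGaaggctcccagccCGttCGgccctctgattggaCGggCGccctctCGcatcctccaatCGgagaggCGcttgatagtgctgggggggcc
Hdac7: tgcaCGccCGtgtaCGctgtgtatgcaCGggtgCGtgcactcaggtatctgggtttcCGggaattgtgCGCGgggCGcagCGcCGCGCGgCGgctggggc
The stretches held 7, 9 and 14 CG dinucleotides in Arid1a, Ezh2 and Hdac7. From these starts to the closest peak downstream there were 131 nt in Arid1a, 90 nt in Ezh2 and 436 nt in Hdac7. Hdac7 has a nearer RefSeq start at 97831495, 164 nt before the closest peak, whose window had 73.7% GC (reached by 5.10% of windows) and 31 CG. Its upstream bases lie between the start and the donor of a longer listed transcript and are not shown. Over the whole window of 300 bases, GC content was 79.7% at this Arid1a start, a level reached by 1.18% of all 32851 windows. It was 64.3% at the Ezh2 start (reached by 19.6% of windows) and 65.7% at the Hdac7 start (reached by 17.0%), against a median of 52.7% over all windows. At least 1 CG was present in 94.6% of all windows, and the windows of Arid1a, Ezh2 and Hdac7 held 36, 31 and 35, against a median of 7. The far upstream Hdac7 start at 97844502, with its closest peak 13171 nt downstream, had a window of 54.7% GC with 6 CG, and the start at 97814863, 2027 nt before a peak, had 60.7% GC with 5 CG. The upstream Arid1a start at 133756769, 2915 nt before the closest peak, had 61.3% GC with 22 CG. These are letters in DNA beside the peaks and say nothing of what DDX5 contacts.

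Peaks were measured as the authors' deposited log2 fold of IP over input, with 1 value for both replicates joined, so replicate error cannot be given and each SD below is over peaks of a gene. The median over all 900 peaks was 5.31 on this log2 scale. Of the 27 peaks, 19 lay above it. By gene these were 8 of 10 in Hdac7, 7 of 8 in Chd7, 3 of 7 in Arid1a and 1 of 2 in Ezh2. Mean enrichment was 5.87 ± 0.48 in Chd7 (SD, 8 peaks), 5.52 ± 0.84 in Hdac7 (SD, 10 peaks), 5.21 ± 0.41 in Ezh2 (SD, 2 peaks) and 5.18 ± 0.55 in Arid1a (SD, 7 peaks). The ranges of the 4 genes overlap, and neighbours in this order differ by less than the SD of the peaks within a gene. Among the 459 genes, Hdac7 stood at rank 7 by number of peaks (tied with Furin), Chd7 at rank 10 (tied), Arid1a at rank 13 (tied) and Ezh2 at rank 90 (tied). Of these 459 genes, 283 had 1 peak.

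**Figure D1:**
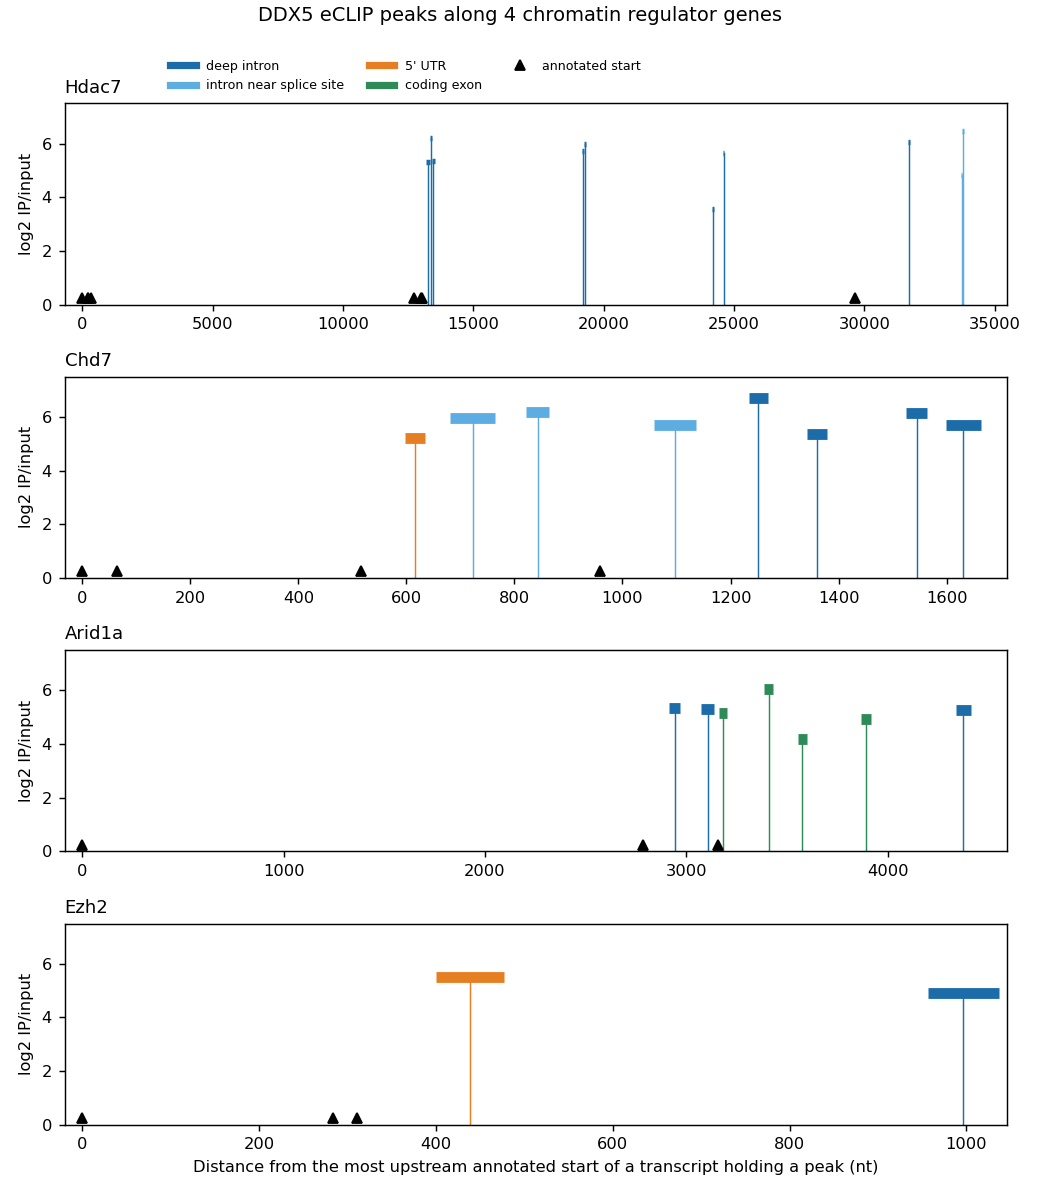
Each peak of Hdac7, Chd7, Arid1a and Ezh2 is drawn at its distance in nt from the most upstream annotated start of a transcript that holds a peak (x axis, a different scale in each panel) and at its log2 fold of IP over input (y axis). Bars span the peak and are coloured by the authors' region class, and triangles mark annotated starts. The 8 peaks of Chd7 fall within 1066 nt and the 7 of Arid1a within 1498 nt, whereas the 10 peaks of Hdac7 are spread over 20661 nt.

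Chd7 (ENSMUSG00000041235.11, plus strand of chromosome 4) had its 8 peaks in a dense row at the 5′ end of the gene. They lay between 8691004 and 8692069 on mm10, a span of 1066 nt, while the RefSeq gene runs over 178048 nt. From 5′ to 3′ the log2 enrichments were 5.20, 5.97, 6.17, 5.69, 6.70, 5.38, 6.16 and 5.69. The highest is the fifth, at 8691640 to 8691675, with a 104-fold excess over input, and the lowest is the one nearest the start. Higher and lower peaks were mixed along the row, with no steady rise or fall. The gaps between neighbouring peaks were 34 to 193 nt, with a median of 72 nt.

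The first Chd7 peak (8691004 to 8691039) lay in an exon of 147 nt that is the 5′ UTR start of 1 protein-coding transcript and inside the intron of 2 others. The second (8691087 to 8691170) began 19 nt past the 5′ splice site, or donor, of that exon. The fourth (8691464 to 8691542) began 29 nt past another donor, which lies 70 nt from a start at 8691365. These 2 peaks had the highest −log10 p of the gene, 41.1 and 45.8, while the other 6 ranged from 10.3 to 18.2. The 7 peaks classed as intronic all lay in an intron that reaches to 8751323. Their distance to that 3′ splice site was at least 59254 nt, whereas the distance to a donor was at most 570 nt. The 4 transcripts listed at these peaks start at 4 positions spread over 959 nt. Measured from the longest transcript that holds each peak, all 8 were within 1 kb of the 5′ end, and from the most upstream start 3 were.

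Arid1a (ENSMUSG00000007880.16, minus strand of chromosome 4) also had its peaks in a row, between 133752357 and 133753854, a span of 1498 nt in a RefSeq gene of 77762 nt. From 5′ to 3′ the log2 enrichments were 5.34, 5.31, 5.16, 6.04, 4.19, 4.95 and 5.28. The fourth was the highest, with a 65.7-fold excess at 133753337 to 133753383, and the fifth, its neighbour downstream, was the lowest with 18.3-fold. Except for these 2, the peaks stayed between 4.95 and 5.34. The highest −log10 p, 28.5, belonged to the last peak, which began 39 nt past a donor.

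The row sits around an exon of 1143 nt (133752469 to 133753611) that is annotated as coding over its whole length and as the 5′ end of 2 protein-coding transcripts. Peaks 3 to 6 lay in this exon. The same 4 peaks were intronic in the longest transcript, which starts at 133756769 and has an intron of 33343 nt that holds all 7 peaks. Peaks 1 and 2 lay upstream of the coding exon, and peak 1 began 59 nt past the donor of a further transcript, annotated as a retained intron, that starts at 133753982. Measured from the longest transcript, the peaks lay 2942 to 4376 nt from the start and 0 of 7 were within 1 kb. Measured from the nearest of 3 annotated starts they lay 25 to 1218 nt away, and 6 of 7 were within 1 kb. Which start these RNAs used cannot be told from the peak list.

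Ezh2 (ENSMUSG00000029687.16, minus strand of chromosome 6) had 2 peaks, 480 nt apart, at the 5′ end of a RefSeq gene of 64997 nt. The first, at 47594865 to 47594940, had a log2 enrichment of 5.50 (45.3-fold) and a −log10 p of 9.99. It crossed the donor of the first exon, with 47 nt in the exon, which is 5′ UTR, and the rest in the intron that follows. The second, at 47594305 to 47594384, had a log2 enrichment of 4.92 (30.4-fold) and a −log10 p of 13.2. It lay 509 nt past that donor, in an intron of 17226 nt whose 3′ splice site was 16637 nt away. Both peaks were within 1 kb of the start under each way of choosing the start. A RefSeq long noncoding RNA gene on the opposite strand, F830010H11Rik, starts at 47595209 and overlaps the 5′ end of Ezh2, which reaches 47595270. Both peaks lie outside F830010H11Rik.

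Hdac7 (ENSMUSG00000022475.18, minus strand of chromosome 15) differed from the other 3 in layout. Its 10 peaks formed 6 sites when touching peaks were joined, between 97810671 and 97831331, and gaps between sites were 343 to 7037 nt with a median of 4838 nt. All 10 were classed as intronic, 8 as deep and 2 as near a splice site, and none touched an exon of a listed transcript. Of the 9 transcripts listed at these peaks, with 8 different starts spread over 29639 nt, 4 have a single intron of 32477 nt that holds 8 of the peaks.

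The most 5′ site of Hdac7 was 345 nt long (97830987 to 97831331) and was made of 3 touching peaks with log2 enrichments of 5.33, 6.20 and 5.37. It began 27 nt past a donor at 97831358, and its −log10 p reached 32.9, the highest of the gene. The next site, 155 nt long at 97825184 to 97825338, had 2 peaks at 5.73 and 6.00 and lay at least 1396 nt from any listed donor. Then came single peaks at 97820254 to 97820345 (3.56) and at 97819874 to 97819910 (5.65). Within the introns that hold them, these lay 6389 nt or more from a donor and 8245 nt or more from a 3′ splice site. Splice sites of other listed introns lie nearer and were not counted. A peak at 97812765 to 97812836 stood at 6.06. It was the only one of the 21 intronic peaks of the 4 genes that lay closer to a 3′ splice site (1136 nt) than to a donor (1872 nt) of the introns that hold it. The last site, at 97810671 to 97810783, lay in an intron of 813 or 885 nt further down the gene, with peaks at 4.81 and 6.49, the latter 89.7-fold and the highest of Hdac7.

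The height and the p of a peak did not go together in Hdac7. The lowest peak, 3.56 on the log2 scale (11.8-fold), had a −log10 p of 23.9, above 8 of its 9 companions, and the peak at 6.06 had 9.25. The lowest −log10 p of the 27 peaks, 5.68, belonged to the Hdac7 peak at 4.81. A −log10 p depends on read number as well as on the fold, and read counts were not in the files used here. None of the 27 peaks stood at 400, the ceiling of the −log10 p, which 72 of the 900 peaks reached. A RefSeq long noncoding RNA gene on the opposite strand, Gm33636, spans the most 5′ site of Hdac7 (97830686 to 97842033). The peaks were called on the strand of Hdac7.

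**Figure D2:**
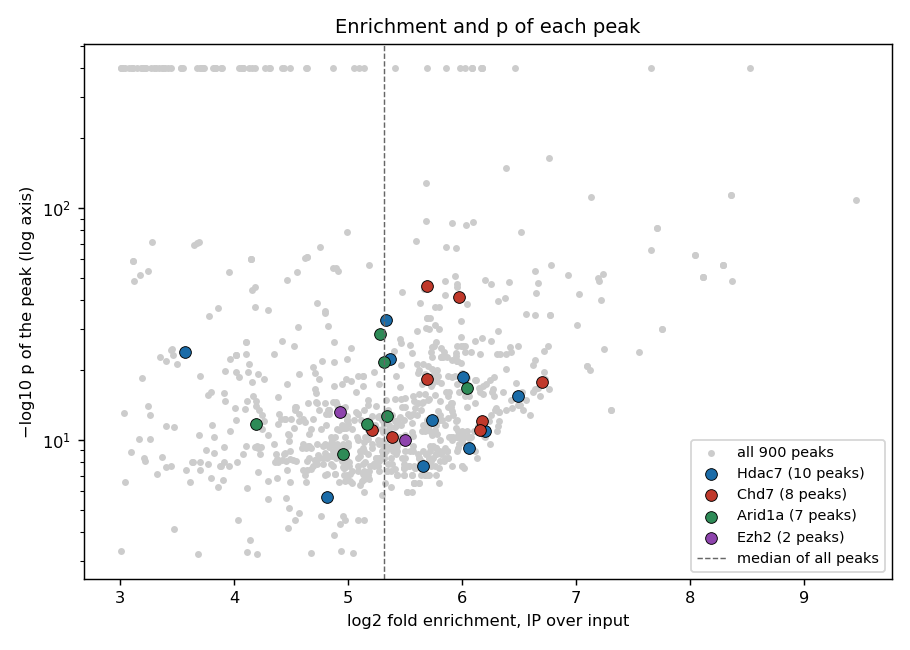
Each peak is placed by its log2 fold of IP over input (x axis) and its −log10 p (y axis, log scale), with all 900 peaks in grey, the 27 peaks coloured by gene and a dashed line at the median log2 fold of 5.31. Most Hdac7 and Chd7 peaks lie to the right of the line, and the Hdac7 peak at 3.56 stands apart at the left.

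The region classes of the 27 peaks were set beside those of the whole list, with exact Clopper-Pearson 95% intervals that cover counting error only and treat peaks of a gene as independent, which they are not. Introns of protein-coding genes held 21 of 27 peaks (77.8%, 57.7 to 91.4) against 513 of 900 (57%, 53.7 to 60.3). Deep intron peaks were 16 of 27 (59.3%, 38.8 to 77.6) against 271 of 900 (30.1%, 27.1 to 33.2), and 8 of these 16 were from Hdac7. Coding exons held 4 of 27 peaks, all of Arid1a, and 5′ UTRs held 2, of Chd7 and of Ezh2. The 3′ UTRs held 0 of 27 (exact interval up to 12.8%), and the whole list had 1.22%. All 6 exonic peaks also lay in an intron of another listed transcript, wholly or in part. In the whole list, 92 of 149 peaks classed as 5′ UTR and 38 of 93 classed as coding exon overlapped an intron of their gene. That wider count includes introns of the same transcript.

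Within introns the peaks sat on the donor side. Of the 21 intronic peaks, 20 were closer to a donor than to a 3′ splice site of the introns that hold them, and 7 began within 150 nt of a donor, whereas 0 lay within 150 nt of a 3′ splice site. The 7 comprised 3 peaks of Hdac7, 2 of Chd7 and 2 of Arid1a. The whole list, these 21 included, had a like layout, in which 446 of 513 intronic peaks of protein-coding genes (86.9%) were closer to a donor, 198 (38.6%) were within 150 nt of one and 26 (5.07%) were within 150 nt of a 3′ splice site. The median distance to a donor was 219 nt in the 21 peaks and 278 nt in all 513. An intron that follows a first exon has its donor near the start, so the distance to a donor and the distance to the start are not separate measures in Chd7, Arid1a and Ezh2.

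Distance to the start gave a different picture by gene and by the choice of start. By the longest transcript that holds a peak, 8 of 8 Chd7 peaks, 2 of 2 Ezh2 peaks, 0 of 7 Arid1a peaks and 0 of 10 Hdac7 peaks lay within 1 kb. Together these are 10 of 27 (37.0%), beside 390 of 766 peaks in protein-coding genes (50.9%). By the nearest annotated start, the counts were 8, 2, 6 and 3, together 19 of 27 (70.4%), beside 530 of 766 (69.2%). By the most upstream start, a choice added after seeing the data, 5 of 27 (18.5%) lay within 1 kb, beside 355 of 766 (46.3%). The share of the 4 genes was therefore close to that of protein-coding genes at large by the nearest start only, and lower by the other choices. The 3 Hdac7 peaks within 1 kb of the nearest start were those of its most 5′ site.

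The spread of peaks along a gene was compared among the 25 protein-coding genes with at least 5 peaks. From the first to the last peak, 11 of them spanned 428 to 1498 nt and the other 14 spanned 10429 to 69536 nt, with none between. Chd7 ranked eighth from the shortest and Arid1a was the last of the short set, whereas Hdac7, with 20661 nt, ranked 17 of 25. Chd7 had 7.5 peaks per kb of its span, Arid1a 4.67 and Hdac7 0.48. The other genes of the short set included Mbd2, which encodes a reader of methylated DNA, with 5 peaks in 428 nt, and Zeb1, a transcriptional repressor, with 8 in 1345 nt. Ezh2, with 2 peaks in 636 nt, was below the minimum number of peaks.

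**Figure D3:**
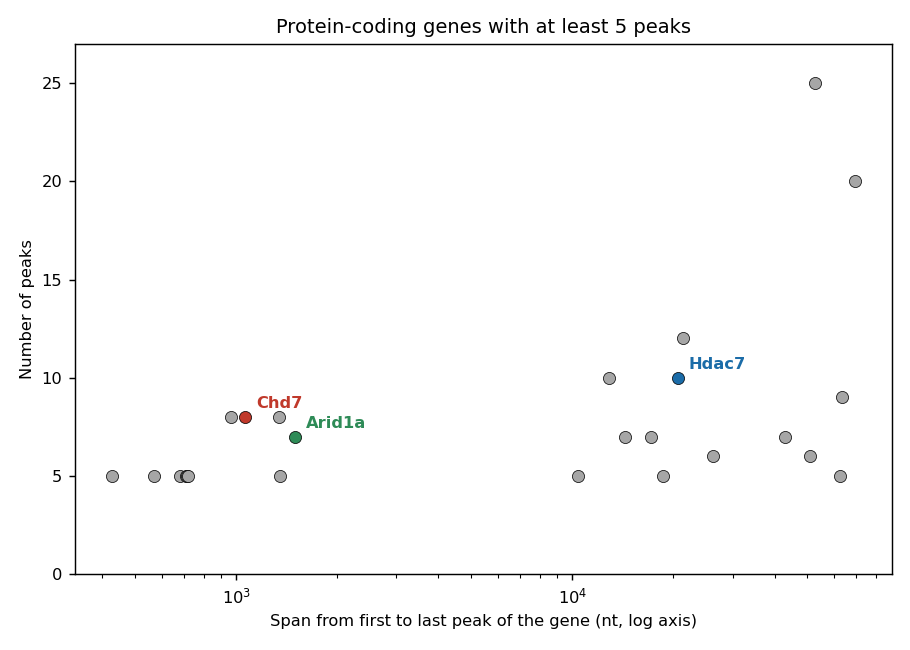
Each point is a protein-coding gene with at least 5 peaks, placed by the span from its first to its last peak (x axis, nt, log scale) and its number of peaks (y axis). Chd7 and Arid1a fall in the set of 11 genes with spans up to 1498 nt, and Hdac7 in the set of 14 genes with spans from 10429 nt.

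Genes with the most similar spread over region classes were named by the sum of absolute differences between shares of peaks per class, among genes with 0.5 to 2 times as many peaks. For Hdac7 the closest of 26 candidates was Bcl11b, which encodes a transcription factor needed for T lineage commitment, with 7 deep and 2 near intronic peaks (distance 0.044), followed by Tcf20 and Anp32b (0.40 each). For Chd7 the closest of 46 were Pmepa1 (0.17), Rasa2 and Zeb1 (0.25 each). Arid1a had no close neighbour, with Insl3 at 0.50, Bsg at 0.64 and Mbd2 at 0.86 among 46 candidates. For Ezh2, 8 of 429 candidates had the same shares, and Prkch, Epb41 and Set were nearest among them by mean enrichment. With 2 peaks such a match carries little information. Likeness in region classes did not mean likeness in spread, since the 9 peaks of Bcl11b spanned 63359 nt and the 5 of Tcf20 spanned 571 nt.

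Other chromatin regulators were counted in 9 families of 159 genes in all, listed with earlier results of these data known. A peak was found in 20 of the 159 (12.6%), the 4 genes described here included, against 1.81% of all 21900 protein-coding genes. Among the 155 genes left without these 4, 16 had a peak (10.3%). The 21900 genes were not limited to those expressed in these cells. The gap between these shares is therefore not read as a preference for chromatin regulators and was not tested. Expression levels were not in the files used here, so fewer RNA molecules of a gene and less binding to each cannot be told apart, and the genes without a peak are not shown to be unbound.

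Beside the chosen genes themselves, a peak was found in 0 of 15 deacetylases and sirtuins (the family of Hdac7), 0 of 15 CHD and ISWI-type remodellers (Chd7) and 0 of 22 BAF subunits (Arid1a). With 1.81% of all protein-coding genes having a peak, counts of 0 in lists of this size are near the background and are no result about these families. In the Polycomb family, 3 of the 24 genes other than Ezh2 had a peak (12.5%), namely Aebp2, Jarid2 and Suz12. Aebp2 had 3 peaks in a coding exon, with log2 enrichments of 5.50, 6.72 and 5.65 from 5′ to 3′, all within 1 kb of the start. Jarid2 had 1 deep intron peak at 5.95, and Suz12, which encodes a core subunit of Polycomb repressive complex 2, had 1 coding exon peak at 4.29. Ezh1, the paralogue of Ezh2, and Eed, which encodes another core subunit, had none.

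Corepressor genes had a peak in 3 of 14, beside 1.81% of all protein-coding genes. This count and those of the families below are a description and were not tested. Arid4a, a subunit of the SIN3 corepressor complex, stood far above the rest, with 2 touching peaks at 8.04 in an intron, of 20 and 15 nt. This was the highest value of the 159 genes and exceeded every peak of Hdac7, Chd7, Arid1a and Ezh2. Mta1, a subunit of the NuRD complex, had 2 intronic peaks at 5.80 and 4.83. Tbl1xr1, a subunit of the NCoR complexes with which class IIa deacetylases associate, had 1 peak in a 5′ UTR at 5.30.

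Histone methyltransferases had a peak in 4 of 22, again beside 1.81% of all protein-coding genes, as for the families that follow. Kmt5a, the monomethyltransferase of lysine 20 of histone H4, had 2 coding exon peaks at 5.77 and 6.05. Nsd2, which the list calls Whsc1, had 1 at 4.81, Nsd1 had 1 at 4.62 and Setd1a had 1 at 4.48. Demethylases had 2 of 16, with Jmjd1c at 5.30 and Kdm5b, which removes methyl groups from lysine 4 of histone H3, at 4.89. Acetyltransferases and bromodomain readers had 2 of 16, including the acetyltransferase gene Kat2b, with 1 peak in a 5′ UTR at 4.69. Of 11 DNA methylation genes, Mbd2 had 5 coding exon peaks at 4.44 to 5.84 and the de novo methyltransferase gene Dnmt3a had 1 deep intron peak at 5.72. Of the 16 genes other than the 4, 11 had 1 peak and none had more than 5. Of their 25 peaks, 22 lay within 1 kb of the nearest annotated start, beside 530 of 766 peaks in protein-coding genes (69.2%). This difference was not tested.

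**Figure D4:**
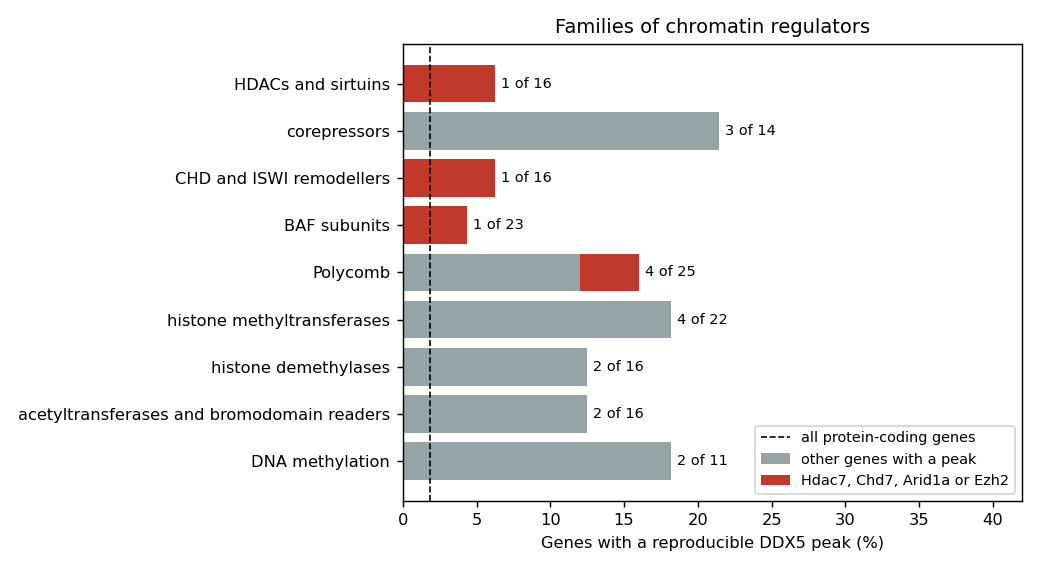
Bars give the percent of genes with a reproducible DDX5 peak in each of 9 chromatin regulator families, with the count beside the bar, and the dashed line marks the 1.81% of all protein-coding genes. Red is the part made up by Hdac7, Chd7, Arid1a or Ezh2 and grey the part made up by other genes, and the corepressor bar is the longest with 3 of 14.

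Of 18 markers of Th17 and CD4 T cells, 2 had a peak, Rora and Ahr, as did 0 of 12 markers of other cells, beside 1.81% of all protein-coding genes. At that share few or none of such short lists would have a peak, so these counts are no check of the labelled cell type. The list names bound RNAs and not levels, and it cannot show whether markers such as Il17a, Il17f or Cd4, which have no peak, were expressed.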

How the data were processed

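The series holds 2 DDX5 IP and 2 input eCLIP libraries, grouped by their titles. Reads were handled with STAR 2.4.0i, cutadapt 1.9.1 and SAMtools 1.4.1 on mm10, per the submitters' processing notes. The deposited settings state that the IP of each replicate was set against its input, that the pair was combined by irreproducible discovery rate, and that the minimum was 3 for both the log2 fold and the −log10 p. For the peak caller and the annotation release, no source used here gives a name. Per the file headers, the deposited list gives the authors' log2 fold and −log10 p once per peak. Depth per library is unknown, and no test over samples could be run.

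The list counts starts from 0, and printed positions count from 1. Distances to starts were taken from peak midpoints and distances to splice sites from peak edges, using the transcripts and introns named in the list's annotation. Peaks that touch were joined into sites. Symbols were matched to the RefSeq table of GRCm38.p6, directly or by a unique synonym, and all 159 family genes matched. Promoter windows were taken from RefSeq for 3 of the 4 genes. No promoter window was held for Chd7. The named genes were the 4 members, family genes with a peak and the 3 genes most alike in region classes, and Zeb1 in the comparison of spans was named after its values were seen. Not every family gene with a peak is reported here. The members and lists were chosen with earlier results of these data known. Joining and distances were tested on simulated data. Python 3.11.15, pandas 2.3.3, numpy 2.4.6 and scipy 1.17.1 were used.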

Additional observations from a re-analysis of the deposited data

How the results depend on the processing

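No paired analysis was possible because the list gives 1 value for both replicates, and leaving out a replicate was not run for the same reason. Of 91 values recomputed under 8 settings, 84 moved by at most 1.5 times (counts) or by less than 1 SD over peaks (mean enrichment). Many of these could hardly move, so the 84 is no measure of robustness. Every peak of the 4 genes names 1 gene, and each site of Chd7, Arid1a and Ezh2 is 1 peak, so those settings kept the same peaks. A mean over most of the same peaks is also unlikely to move by their SD. At a −log10 p of at least 10, Ezh2 kept 1 peak, in 1 site and with 1 within 1 kb of the start, since its other peak has 9.99. Within the limit of 1.5 times, Hdac7 fell from 10 to 7 peaks and from 6 to 4 sites, and Arid1a from 7 to 6 peaks. Chromatin family genes with a peak fell from 20 to 15. The share of all protein-coding genes at this cutoff was not computed, so nothing is read from that fall. The Hdac7 peak at 97812765, the only intronic one closer to a 3′ splice site, was among the peaks lost at this cutoff, with a −log10 p of 9.25. Joining peaks up to 50 nt apart left 6 Chd7 sites in place of 8 and 6 Arid1a sites in place of 7, also within the limit. Counting the highest peak of each site left 6 intronic Hdac7 peaks in place of 10. By the nearest annotated start, 3 Hdac7 and 6 Arid1a peaks lay within 1 kb in place of 0, and by the most upstream start, a choice added after seeing the data, 3 Chd7 peaks did in place of 8. Placing peaks by start thus depends on the annotation in these 3 genes. Requiring a log2 fold of at least 4, or peaks that name 1 gene, moved none of the values beyond these limits. Read depth and input coverage, which limit how firmly a fold is known, were not in the files used here.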
